A study of Mus musculus with 27 samples.

Results

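The RGK GTPases are 4 genes, Rrad, Gem, Rem1 and Rem2, and were measured here in single myofibers of a mouse model of spinal muscular atrophy. They were found by gene symbol among the probes of the array, which gave 5 of 55681 probes (4 of 35527 genes), with a pair of probes for Gem and 1 probe for each of the others. The family was selected on the Rrad difference between knockout and wild type, the largest rise on the array, so for all 4 genes the difference between knockout and wild-type myofibers is given as a description and without a test. RGK proteins are small GTPases related to Ras. They bind the beta subunits of voltage-gated calcium channels and reduce the calcium current, and they also bind calmodulin and 14-3-3 proteins. In skeletal muscle the L-type channel is the voltage sensor that couples excitation to contraction, and Rrad (Ras-related associated with diabetes) is known to be induced in regenerating and denervated muscle.

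Each sample was the RNA of 1 myofiber from the tibialis anterior of a male mouse, amplified in 18 cycles and put on a 1-colour array of its own. The Wt group held 8 myofibers of 2 wild-type mice. The Smn1deltaSKM group held 12 myofibers of 3 mice in which Cre under the HSA (skeletal alpha-actin) promoter deletes the floxed exon of Smn1 (Smn F7/F7), so that the deletion is limited to skeletal muscle. The Smn1deltaSKM+AFS group held 7 myofibers of 2 mice of that same genotype that had received amniotic fluid stem (AFS) cells, sorted for GFP and c-kit, through the tail vein. The labels give an age of 3 months for every sample, whereas the study's methods place the injection at that age and the collection later, so treated mice may be older. The study calls the controls littermates in its results and names a GFP strain for myofiber isolation in its methods, and the Cre status of the Wt mice is not given in the sources used here. The study's text counts treated mice and myofibers differently in places, and the labels were followed here. Since genotype and treatment belong to the mouse, the mouse was the replicate, with n of 2, 3 and 2.

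All 8 Wt arrays lay on 1 slide and were scanned on a day on which no other group was scanned, so slide and scan day cannot be told apart from genotype in any difference from Wt. The share of spots well above background was 45.1% to 64.8% on Wt arrays (median 47.7%), 43.6% to 74.2% on Smn1deltaSKM arrays (median 62.2%) and 51.1% to 59.3% on Smn1deltaSKM+AFS arrays (median 55.3%). One of the Smn1 probes had a median log2 level of 1.97 in Wt, 0.36 in Smn1deltaSKM and 0.13 in treated myofibers, while the other had medians of 2.44, 2.57 and 2.74. The fast myofiber markers Acta1, Ckm, Myh4, Tnnt3, Tnni2, Pvalb and Actn3 were detected on every array, and Myh1 on all but 1, with a median log2 level of 1.61 in Wt, 3.47 in Smn1deltaSKM and 6.83 in treated myofibers. Summed over the 8 fast markers, the linear level relative to the 75th percentile of the array was 2040 to 3560 in Wt, 1400 to 2370 in Smn1deltaSKM and 2180 to 2870 in treated myofibers. The 5 slow myofiber markers were all detected on every Smn1deltaSKM and treated array, but only Tnnc1 on every Wt array, and summed to 2.7 to 8.56 (median 5.8), 7.32 to 12.1 (median 9.79) and 7.3 to 14.2 (median 9.22). Of the 5 satellite cell markers, Myf5 was detected on no array, and the summed level was 0.668 to 3.42, 1.51 to 26.4 and 2.12 to 5.37 in the same order. Of the 5 fibroblast markers, Pdgfra was detected on no array, with summed levels of 0.319 to 61.2 (median 0.649), 0.518 to 20 (median 5.27) and 0.39 to 16.5 (median 8.09). Dcn was detected on 1 of 8 Wt, 12 of 12 Smn1deltaSKM and 5 of 7 treated arrays, Col1a1 on 2, 9 and 5, and Col3a1 on 7, 12 and 7. These markers were thus detected more often in Smn1deltaSKM and treated than in Wt myofibers, in the direction of Rrad. Lum was detected on 1, 5 and 1 arrays, and the highest summed level of the fibroblast markers was on a Wt array. The 5 leukocyte markers summed to 21.9 to 35.3, 17.5 to 27.3 and 18.0 to 25.4. The part of these markers in the results was not tested.

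The array measures each gene through a probe of 60 bases, and the probes are shown because every level below is the signal of 1 of these sequences. Positions are those of the array files on mm9. The Rrad probe, at chr8:107152532-107152591 on the minus strand, is shown whole and has no stop codon in any of the 3 forward frames. For the other probes a stretch of 30 bases is shown. The Gem probes lie on chr4 on the plus strand, probe 1 at chr4:11641692-11641751 and probe 2 at chr4:11642081-11642140, and the capitals in probe 2 mark the hexamer of a polyadenylation signal. The Rem1 probe lies at chr2:152460868-152460927 and the Rem2 probe at chr14:55098859-55098918, both on the plus strand.
Rrad: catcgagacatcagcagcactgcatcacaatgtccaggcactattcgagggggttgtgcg
Gem probe 1, bases 1 to 30: cccatcctttgggttgcttcttgtatgcca
Gem probe 2, bases 31 to 60: tttggggtcaAATAAAgctgagctagaatc
Rem1, bases 1 to 30: tgtagactggcttggcctgctggcccagat
Rem2, bases 1 to 30: cggaaagacacttcaaaaactagaaccgaa
The longest run that any of these probes shared with the probe of another gene was 13 bases for Rrad and Rem2, 14 for Gem probe 1, and 15 for Gem probe 2 and Rem1. The GC content was 55.0% for Rrad, 35.0% and 40.0% for the Gem probes, 48.3% for Rem1 and 45.0% for Rem2. Levels were not compared between genes, since each probe binds with its own strength.

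Rrad was low in Wt myofibers, in some at the background, and bright in all others. Levels are given as the log2 of the scanner signal minus the 75th percentile of the array, so that 0 is the level of a spot at that percentile. In Wt mouse 1 the 4 myofibers lay at -3.09, -0.68, -2.15 and -0.56. In Wt mouse 2 they lay at -1.33, -2.97, -0.04 and 0.19. The spot was well above background on 5 of the 8 Wt arrays, and on 4 of them it also passed the other quality marks and gave a value for the fits.

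Every Smn1deltaSKM myofiber was above every Wt myofiber. The myofibers of Smn1deltaSKM mouse 1 lay at 6.95, 5.69, 6.67 and 4.28. Those of mouse 2 lay at 6.30, 6.39, 6.92 and 5.72. Those of mouse 3 lay at 5.09, 5.84, 5.45 and 5.87. The ranges of the 3 mice overlapped, with mouse means of 5.90, 6.33 and 5.56 (5.93 ± 0.39, SD, n = 3). The SD among the myofibers of a mouse was 0.782. A mean of 4 myofibers varies less than a single myofiber, so the SDs are not of like things.

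With the measured signal kept on every array, Wt averaged -1.33 ± 0.41 (SD, n = 2 mice), and Smn1deltaSKM exceeded it by 7.26 on the log2 scale. With values below the quality marks left out, which drops 4 of the 8 Wt myofibers, the Wt mean was -0.27 ± 0.49 and the difference 6.20 with a standard error of 0.86. No other gene of the 17059 tested had a larger difference, which is what the choice of the family rested on. Both Rrad and Rem1 separated all Smn1deltaSKM from all Wt myofibers, as did 2.23% of all genes on the array and 3.41% of those tested in that direction.

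**Figure D1:**
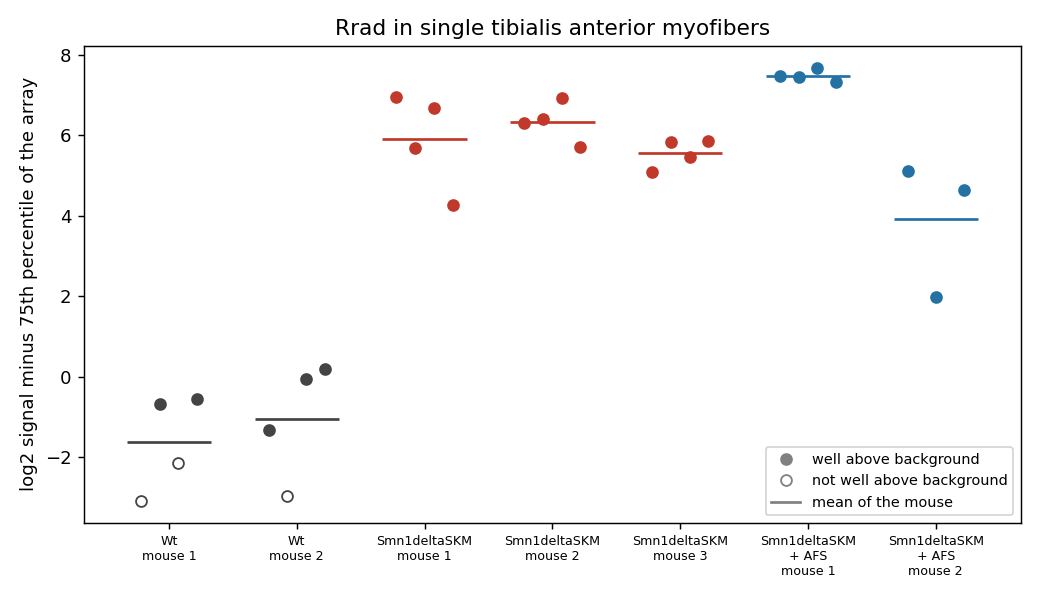
Level of Rrad in each of 27 myofibers (log2 signal minus the 75th percentile of the array, vertical axis) by mouse and group, with the mean of each mouse as a line, and open circles where the spot was not well above background. The 8 Wt myofibers lie between -3.09 and 0.19, the 12 Smn1deltaSKM myofibers between 4.28 and 6.95, and the Smn1deltaSKM+AFS myofibers form 1 tight group near 7.47 and another from 1.99 to 5.12.

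The treated mice, which were not used to choose the family, were split in their Rrad levels. In mouse 1 the 4 myofibers lay at 7.46, 7.44, 7.68 and 7.31, all above the highest Smn1deltaSKM myofiber. In mouse 2 the 3 myofibers lay at 5.12, 1.99 and 4.63, of which 1 was below the lowest Smn1deltaSKM myofiber. All 7 were above every Wt myofiber, as was the case for 4.45% of all genes on the array and 6.96% of those tested.

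Rrad was higher in Smn1deltaSKM+AFS than in Wt by 5.97 on the log2 scale (standard error 0.94, 95% interval 3.80 to 8.13), which is 62.5-fold (limma, adjusted p = 0.0181). Of the 16648 genes tested in this contrast 3.47% were called higher and 4.3% lower. The test shares its Wt mice with the choice of the family and, like the difference above, uses 4 of the 8 Wt myofibers. Values were required on 75% of all 27 arrays, and Rrad had them on 23 of 27 but on 11 of the 15 Wt and treated arrays, so that it was tested here through the Smn1deltaSKM arrays as well. Without that filter and with the measured signal of all 8 Wt myofibers the difference was 7.02 (limma, adjusted p = 0.0108). The call was lost without Wt mouse 1 (limma, adjusted p = 0.173), without Wt mouse 2 (0.0947) or without treated mouse 1 (0.121, at a difference of 4.19).

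Between treated and untreated Smn1deltaSKM mice the Rrad difference was -0.24, with a 95% interval from -2.21 to 1.74 (limma, adjusted p = 1.00). That interval still holds differences above 3-fold in either direction. The means of the 2 treated mice, 7.47 and 3.92, differed by 3.56, a gap reached by 7 of 16648 genes (0.042%), and 17.8% of genes had no overlap between the myofibers of those mice. With scan day as a fixed block the difference from untreated mice was -0.17. Within scan day 1 it was 1.12, with 1 mouse in each group, and within scan day 2 it was 0.26. In this contrast limma called 0.0% of the 16648 genes, with 532 at an unadjusted p under 0.05, and 20 with myofibers as replicates. With slide as a fixed block and mouse as a random block, 361 of 17646 genes were called. Treated and untreated myofibers shared only 1 slide, with 1 myofiber of each. That fit sets the groups against each other through this pair, so its calls say little about the mice.

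**Figure D2:**
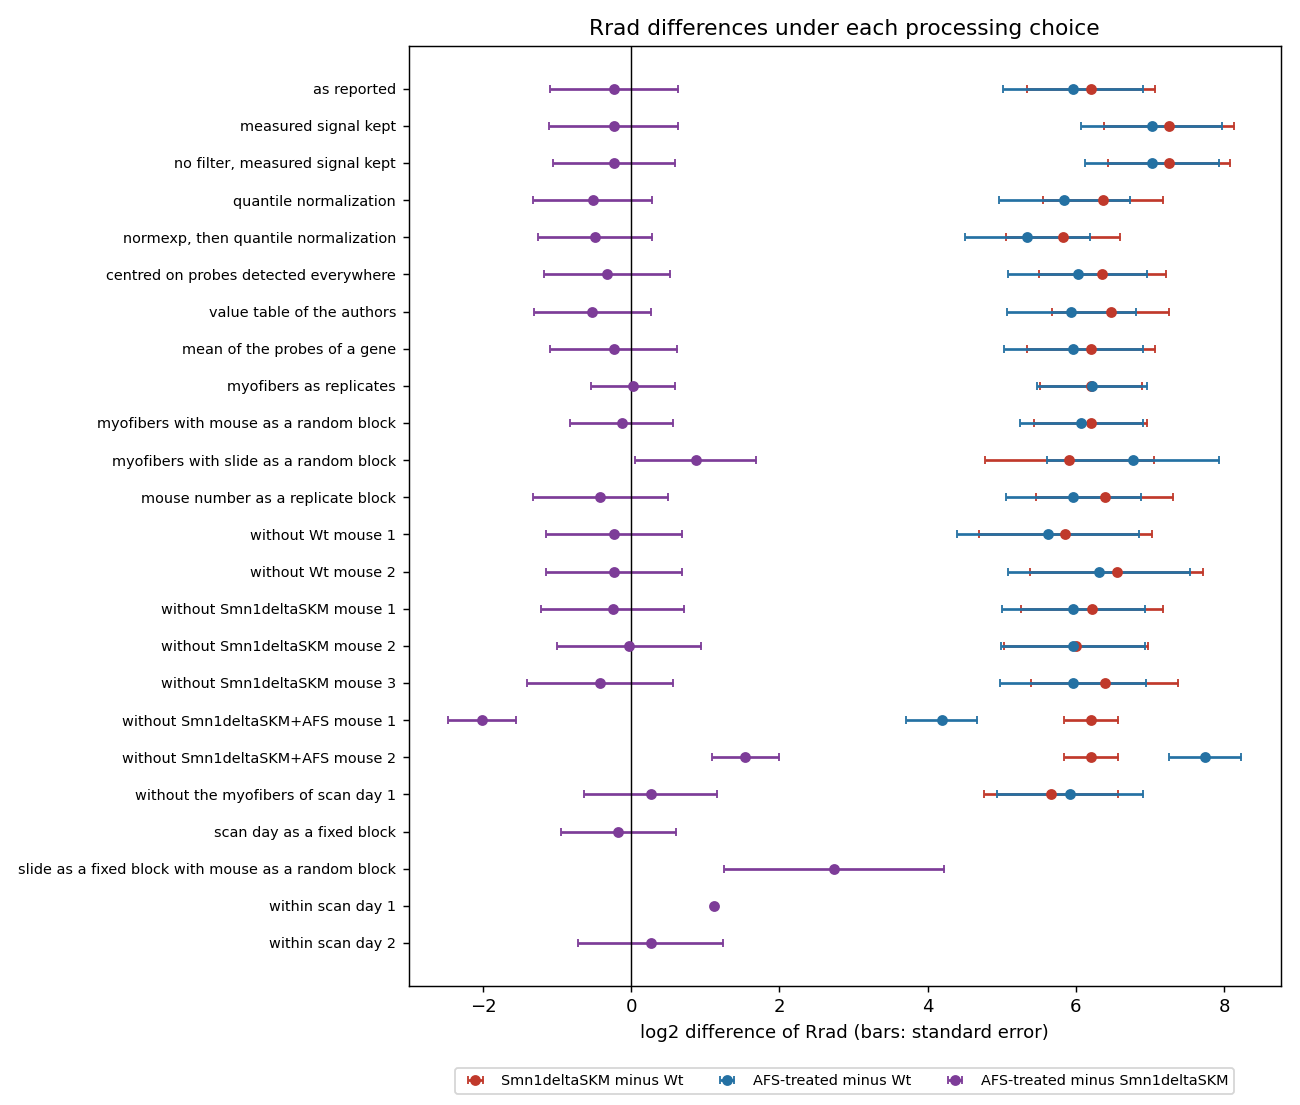
Log2 difference of Rrad between groups (horizontal axis, bars show the standard error) under each way of processing the arrays (vertical axis), in 3 colours for the 3 pairs of groups. Both differences from Wt stay at or above 4.19, while the difference between treated and untreated mice lies on both sides of 0, from -2.01 without treated mouse 1 to 2.73 with slide as a fixed block. The single value within scan day 1 has no standard error. With slide as a fixed block, treated and untreated myofibers met on 1 slide only, with 1 myofiber of each.

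Gem encodes a GTPase known as an immediate early product of stimulated cells. Its probe 1 was well above background on 3 of 8 Wt arrays, 11 of 12 Smn1deltaSKM arrays and 7 of 7 treated arrays. In Wt its level ran from -4.63 to -0.85, with a median of -2.11. The Smn1deltaSKM myofibers ran from -1.70 to 2.73, with a median of 0.95, and 10 of the 12 exceeded the highest Wt myofiber.

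The Smn1deltaSKM mice had different Gem levels, with mouse 2 clear of the others and mice 1 and 3 overlapping. In mouse 1 the 4 myofibers lay at -0.05, -1.70, -1.26 and -0.12. In mouse 2 they lay at 1.83, 2.30, 2.13 and 2.73. In mouse 3 they lay at 1.16, 1.41, -0.37 and 0.74. Mice 2 and 3 together exceeded mouse 1 by 2.27, a gap reached by 2.47% of genes, and the same gap for Rrad was 0.050. The first 3 myofibers of mouse 1 were the only Smn1deltaSKM samples of scan day 1.

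Scan day could be read within a pair of mice that were scanned on both days. In Smn1deltaSKM mouse 1 the Gem mean was -1.003 on day 1 (3 myofibers) and -0.12 on day 2 (1 myofiber). In treated mouse 1 it was 0.41 on day 1 and 1.70 on day 2, with 2 myofibers each. Gem was thus lower on day 1 in both mice, by 0.88 and 1.29, and Gem probe 2 by 1.14 and 1.60. Rem1 was the reverse, higher on day 1 by 0.83 and 0.93, and Rrad was higher on day 1 by 2.16 in Smn1deltaSKM mouse 1 and by 0.17 in treated mouse 1. In both mice the myofibers of day 1 lay on other slides than those of day 2, so scan day and slide cannot be told apart here. Their part in these values was not tested.

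In treated mouse 1 the Gem probe 1 levels were 2.30, 0.51, 0.32 and 1.11. In treated mouse 2 they were 2.70, 0.11 and 0.60. All 7 lay above the highest Wt myofiber, as for 4.45% of all genes and 6.96% of those tested. The mouse means were 1.06 and 1.14, and the SD among the myofibers of a mouse was 1.11. The mice that were far apart in Rrad were therefore close in Gem.

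Gem did not reach the share of available values needed for the contrast of Smn1deltaSKM with Wt, so its difference is that of the measured signals, 3.19. In treated mice the difference from Wt was 2.57 (standard error 0.76, 95% interval 0.83 to 4.31) and was not called (limma, adjusted p = 0.0730), with 3 of 8 Wt myofibers in the fit. Gem had values on 21 of 27 arrays but on 10 of the 15 Wt and treated arrays, and so was tested only because the Smn1deltaSKM arrays counted toward the filter. The difference was called with the measured signal kept (3.55, limma, adjusted p = 0.0338) and also without the filter (limma, adjusted p = 0.0350), and over all alternatives the adjusted p ran from 0.00906 to 0.357. Treated and untreated Smn1deltaSKM mice differed by 0.26 (95% interval -1.32 to 1.85, limma, adjusted p = 1.00).

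Gem probe 2 followed probe 1 over the 27 myofibers (r = 0.894), which share arrays and RNA. It was well above background on 2 of 8, 10 of 12 and 7 of 7 arrays, and its measured signal was higher than in Wt by 1.89 in Smn1deltaSKM and 2.10 in treated mice. Those differences were smaller than those of probe 1, which were 3.19 and 3.55. Over the 27 myofibers the level of Gem probe 1 had r = 0.667 with the share of spots well above background, and r = 0.576 over the 19 Smn1deltaSKM and treated myofibers. For Rrad these were 0.442 and -0.23. Arrays that detected more spots thus tended to show more Gem, and the part of detection in the Gem values was not tested.

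Rem1, a member of the family found in heart and skeletal muscle, lay between -3.88 and -2.23 in Wt (median -2.88), between -2.13 and -1.08 in Smn1deltaSKM (median -1.57) and between -2.18 and -1.12 in treated myofibers (median -1.61). It was well above background on 3 of 8, 12 of 12 and 7 of 7 arrays. No myofiber of the latter groups overlapped with Wt, as for 2.23% of all genes in Smn1deltaSKM and 4.45% in treated myofibers (3.41% and 6.96% of those tested). The mouse means were -1.502, -1.626 and -1.592 in Smn1deltaSKM and -1.626 and -1.555 in treated mice, a narrower spread than that of Rrad or Gem.

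The Rem1 difference between Smn1deltaSKM and Wt was 0.83 with 3 of 8 Wt myofibers in the fit, 1.43 with the measured signal kept and 0.20 with normexp background correction and quantile normalization. Treated mice exceeded Wt by 0.82 (standard error 0.27, limma, adjusted p = 0.0930), which was not called, and by 1.41 with the measured signal kept, which was (limma, adjusted p = 0.0234 with the filter and 0.0422 without it). Like Gem, it had values on 10 of these 15 arrays and reached the filter with 22 of 27. Over all alternatives the adjusted p ran from 0.0149 to 0.418. Between treated and untreated mice the difference was -0.017 (95% interval -0.58 to 0.55, limma, adjusted p = 1.00).

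Rem2, known mainly from neurons, was not well above background on any of the 27 arrays. Its measured signal lay between -5.31 and -3.30 in Wt, between -5.90 and -4.11 in Smn1deltaSKM and between -5.34 and -4.80 in treated myofibers. The groups overlapped, and no fold is given between signals at the background.

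**Figure D3:**
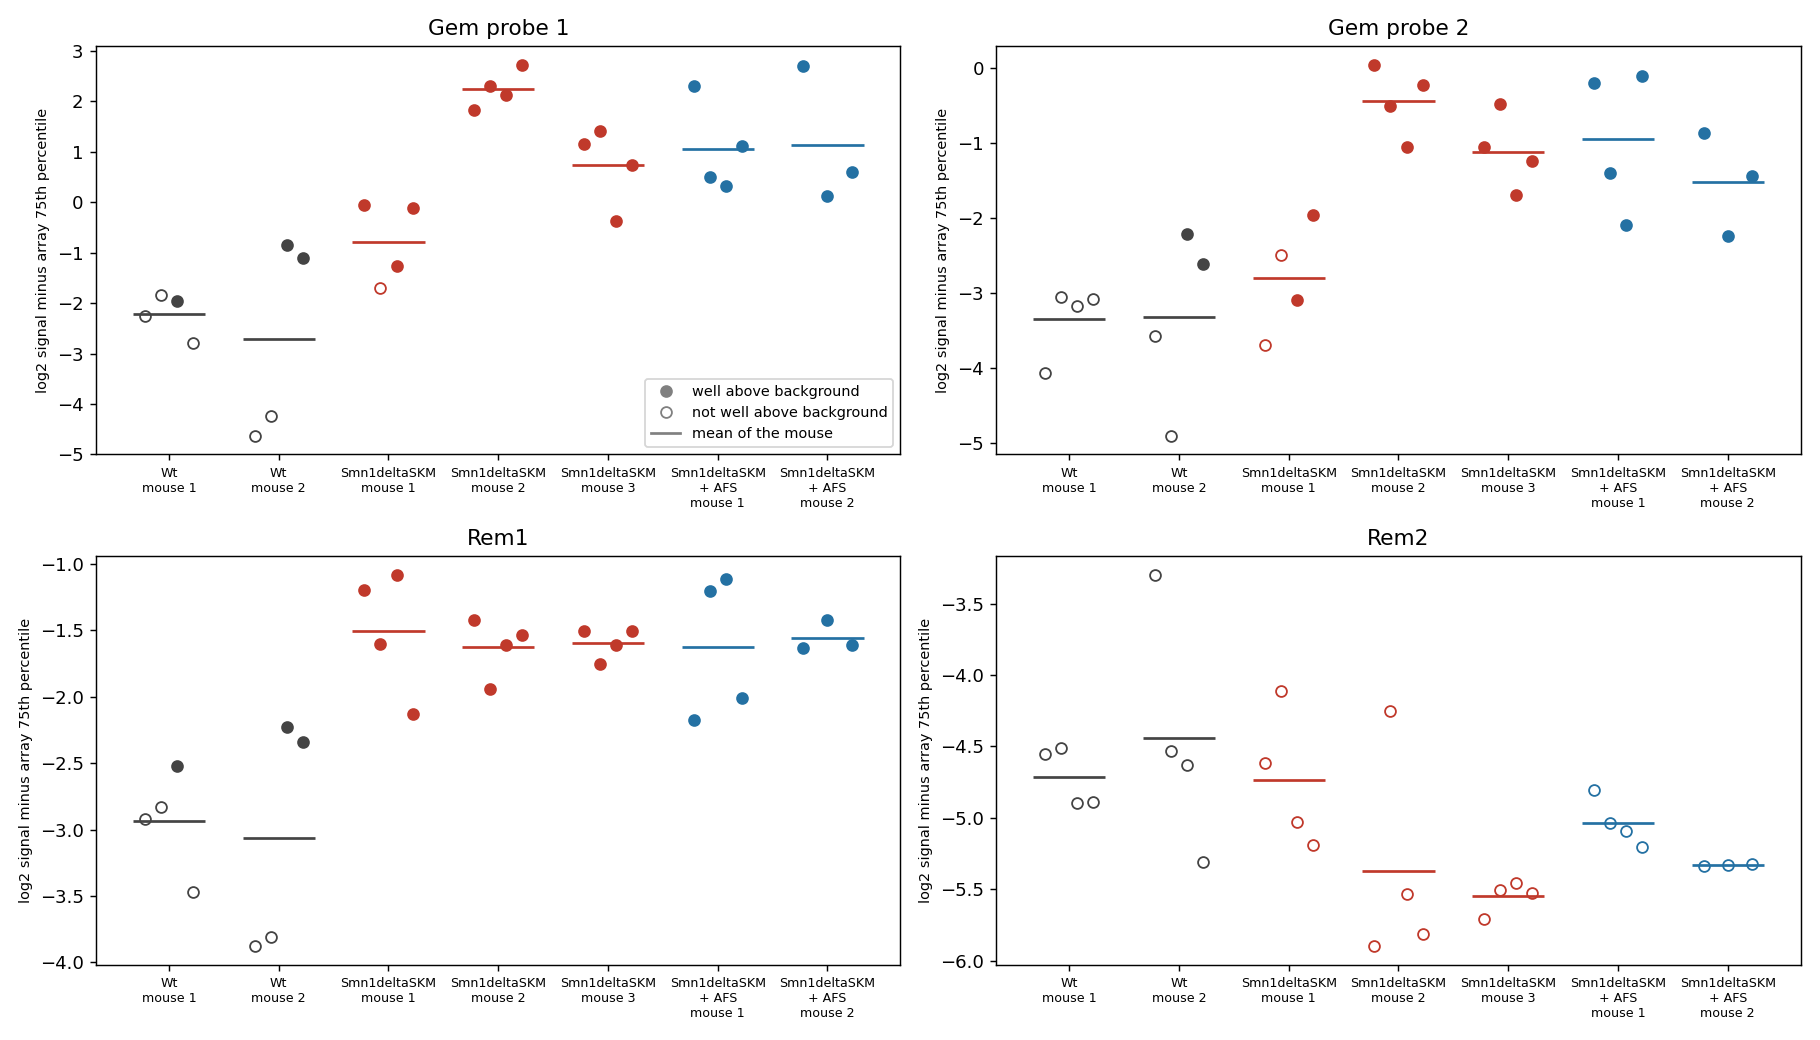
Levels of both Gem probes, Rem1 and Rem2 in each of 27 myofibers (log2 signal minus the 75th percentile of the array, vertical axes of different range) by mouse and group, with mouse means as lines and open circles where the spot was not well above background. Gem sets Smn1deltaSKM mouse 1 (mean -0.78 for probe 1) below mice 2 and 3 (2.25 and 0.73), Rem1 holds the untreated and treated mice at -1.626 to -1.502, and Rem2 has open circles only.

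The genes whose levels followed Rrad most closely were looked for in 2 ways among 16647 genes, and these are descriptions chosen for their likeness. Over the 7 mouse means, which mainly carry the step from Wt to the other groups, the highest r were those of Cstf2 (0.998), a factor of mRNA 3′ end formation, Bcl2 (0.998), which restrains apoptosis, Calhm3 (0.997) and 4930465A12Rik (0.996). Cstf2 had mouse means of -0.01 and 0.33 in Wt, 2.16, 2.21 and 2.14 in Smn1deltaSKM, and 2.58 and 1.63 in treated mice. It repeated the order of the treated mice seen for Rrad. Rem1 had r = 0.942 over the same means (rank 425) and Gem r = 0.843 (rank 1967).

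With the mean of each mouse subtracted, so that only differences among myofibers of the same mouse remain, the closest gene was Ankrd1 (r = 0.805, n = 27 myofibers). Ankrd1 encodes a titin-binding ankyrin repeat protein of stretched and denervated muscle. It was followed by Pttg1ip (0.712) and Pak4 (0.673), a kinase of the actin cytoskeleton. Ankrd1 was chosen on these same values, so its r in parts of them are descriptions and no separate support. Within groups the r of Ankrd1 with Rrad was 0.865 over 8 Wt, 0.701 over 12 Smn1deltaSKM and 0.802 over 7 treated myofibers. Over all groups without treated mouse 2 it was 0.74. In Wt, 3 of the 8 Rrad spots were not well above background, so the r in Wt rests partly on signal at the background. Gem (0.425, rank 413) and Rem1 (0.395, rank 632) were less close to Rrad, and over the 12 Smn1deltaSKM myofibers Gem had r = -0.146 and Rem1 r = 0.712. The myofibers of a mouse share slides and scan days, and both genes were measured on the same arrays.

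**Figure D4:**
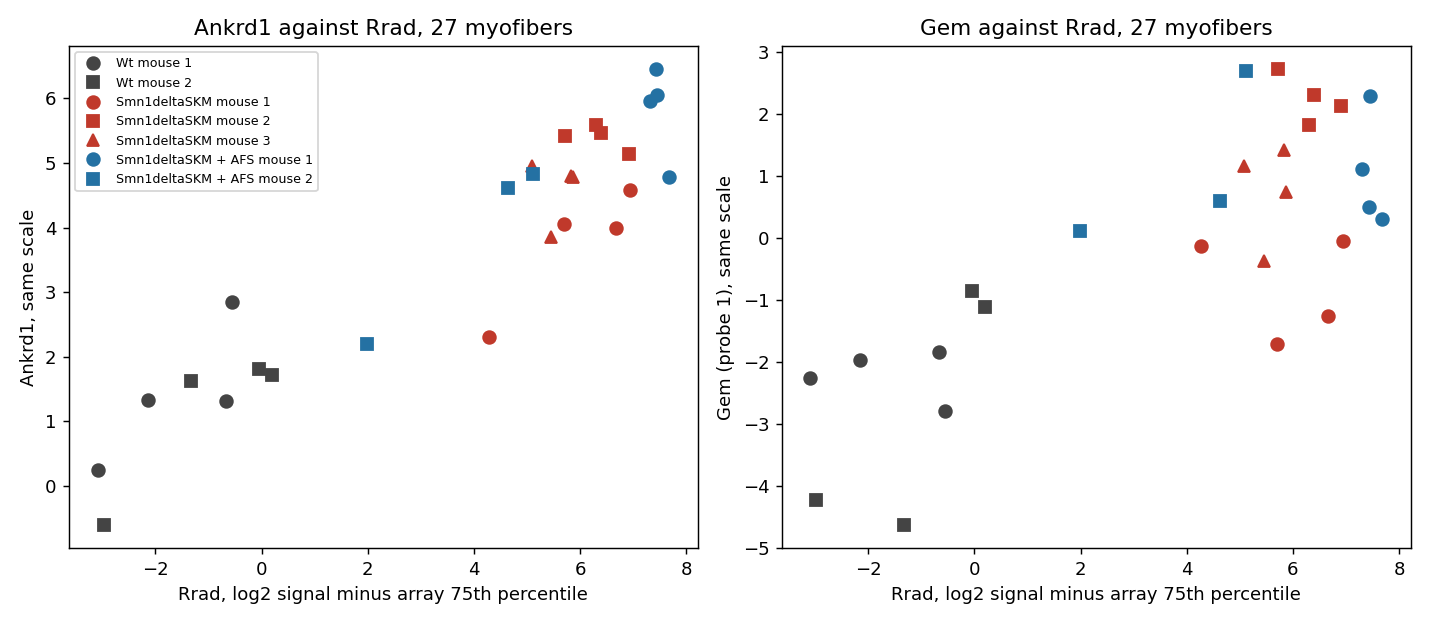
Level of Ankrd1 (left) and of Gem probe 1 (right) against the level of Rrad in 27 myofibers, all as log2 signal minus the 75th percentile of the array, with colours for groups and symbols for mice. Ankrd1 climbs with Rrad also among the myofibers of a mouse (r = 0.805 with mouse means subtracted), where Gem is more scattered (r = 0.425).

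The proteins through which RGK GTPases act were followed in a list of 40 genes made up of calcium channel subunits, calmodulins, calmodulin kinases, 14-3-3 proteins and other partners. Of the 31 that could be tested between Smn1deltaSKM and Wt, 8 were called (25.8%), 1 higher and 7 lower, where 21.7% of all 17059 genes were called (7.67% higher and 14.1% lower). The median difference of the list was -0.45, and that of all genes was -0.14. The share of calls is thus near that of all genes, and nothing particular to the list follows from it. Without Wt mouse 1 or Wt mouse 2 the calls of this list fell to 0, as did those of all genes, and without Smn1deltaSKM mouse 1 there were 16, so every call named from the lists below rests on both Wt mice.

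Among the 17 calcium channel subunits 11 were tested and 4 called (36.4%, against 21.7% of all genes). Cacnb1 encodes the beta subunit of the skeletal muscle L-type channel. It had mouse means of 5.47 and 5.14 in Wt and of 3.70, 3.58 and 3.72 in Smn1deltaSKM. It fell by 1.64 (standard error 0.25, limma, adjusted p = 0.00905), and in treated mice, at 4.23 and 4.13, it was lower than in Wt by 1.13 on the log2 scale (difference -1.13, limma, adjusted p = 0.0472). Cacna1s, the pore of the same channel, had mouse means of 6.17 and 6.47 in Wt and of 3.93, 5.36 and 5.57 in Smn1deltaSKM. Its difference of -1.37 was not called (limma, adjusted p = 0.0712), and without Smn1deltaSKM mouse 1 it was -0.85 and was called (limma, adjusted p = 0.0255). It was also called with the mouse number as a block (-1.67, limma, adjusted p = 0.0390) and without the scan day 1 myofibers. Fits on single myofibers called it as well, with slide (-1.71, limma, adjusted p = 0.0224) or mouse (0.00419) as a random block or with no block. Of these, only the fit with a mouse block takes account of the mouse, and all Wt arrays lay on 1 slide. Cacna1s was not called with quantile normalization (-1.04, limma, adjusted p = 0.218), after normexp correction (-1.16, 0.168) or in the value table of the authors (-1.04, 0.214).

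The alpha2delta subunits, which are bound to the channel from outside the cell, went in both directions. Cacna2d2 rose by 1.98 (limma, adjusted p = 0.0140), from mouse means of 3.09 and 3.74 to 5.77, 5.12 and 5.31, and was also higher in treated mice than in Wt, by 2.25 (limma, adjusted p = 0.0240). Cacna2d4 had a difference of -1.90 (limma, adjusted p = 0.00788), and Cacna2d1, the alpha2delta of the skeletal muscle channel, one of -1.41 (limma, adjusted p = 0.0421), a call lost in 13 of 20 alternatives. With the brightest probe of each gene, the largest fall of the list was that of the calmodulin kinase Camk2a, at -2.40 (limma, adjusted p = 0.00670). Its mouse means were 5.72 and 5.36 in Wt and 2.72, 3.27 and 3.42 in Smn1deltaSKM. With the mean of the probes of a gene the Camk2a difference was -1.79 (limma, adjusted p = 0.0195), smaller than that of Cacna2d4 (-1.90). The other calls were those of the calmodulin kinases Camk2d (-1.33) and Camk2g (-1.31) and the 14-3-3 protein Ywhae (-1.35).

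**Figure D5:**
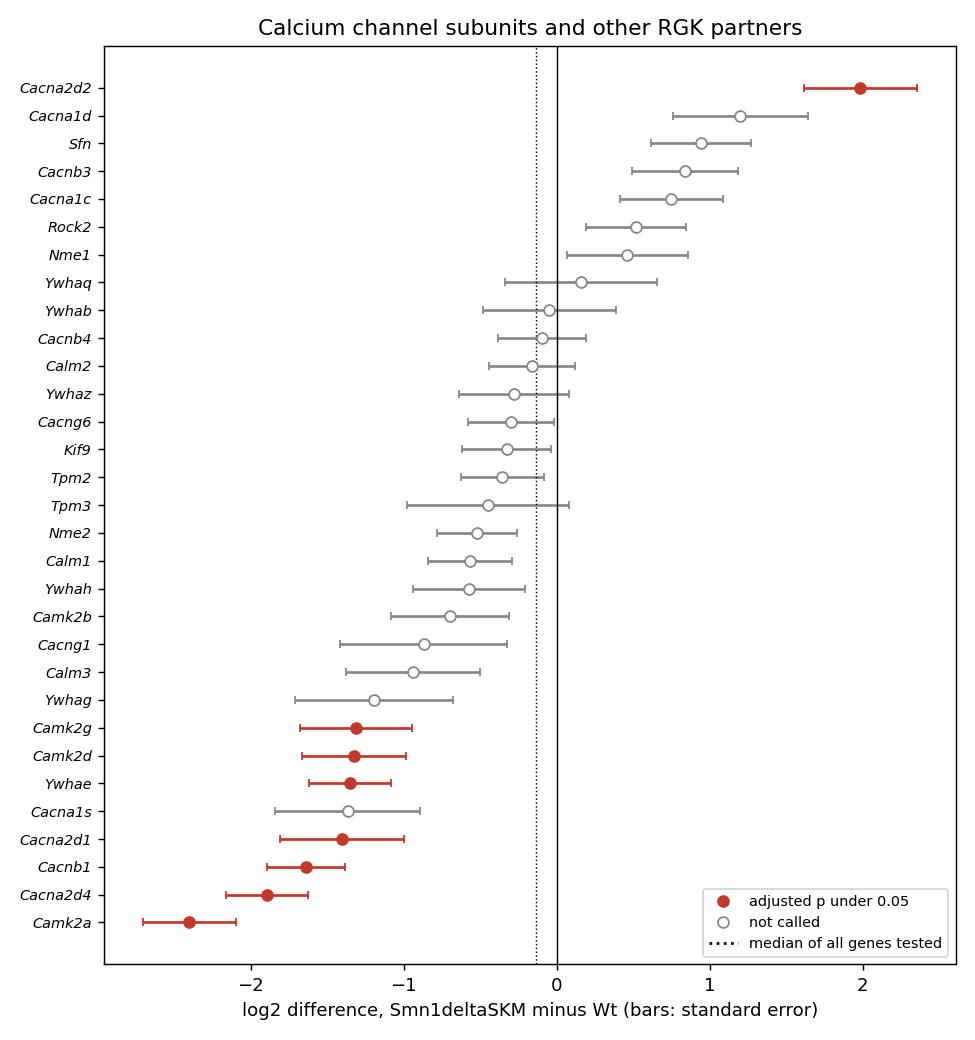
Log2 difference of Smn1deltaSKM from Wt (horizontal axis, bars show the standard error) for the 31 tested calcium channel subunits and other RGK partners, sorted by size, with called genes filled and the median of all tested genes, -0.14, as a dotted line. Cacna2d2 stands at 1.98 as the single gene called higher, and 7 genes from Camk2a (-2.40) to Camk2g (-1.31) were called lower.

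Gem belongs to the immediate early genes, which are switched on within minutes of a stimulus, and 36 genes of that class were followed. Of the 29 tested between Smn1deltaSKM and Wt, 9 were called higher and 0 lower at an adjusted p under 0.05, and 13 had an unadjusted p under 0.05 in limma. The called share was 31.0%, where 21.7% of all genes were called (7.67% higher and 14.1% lower), and the median difference was 0.83, with 0 calls without either Wt mouse and 15 without Smn1deltaSKM mouse 1. The 4 largest were Arc at 4.33 (limma, adjusted p = 0.00877), the phosphatase Dusp2 at 3.87 (0.0138), Myc at 3.45 (0.0300) and the zinc finger factor Klf6 at 2.91 (0.00877), the Myc call being lost in 7 alternatives. Atf3, Egr1, Klf4, Fosl2 and Nr4a3 were the other 5. Klf4 had values on 3 of 8 Wt and 12 of 12 Smn1deltaSKM arrays, and so reached the filter through the group where it was high. Fos was not called, with a difference of 0.077 and mouse means of 0.96, 3.79 and 4.22 in Smn1deltaSKM. Its low mouse was mouse 1, which was also the low mouse of Gem.

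Arc, Dusp2, Myc and Klf6 had a higher mean in treated mouse 1 than in treated mouse 2, as Rrad did. Arc had means of 3.79 and 1.45 in treated mice 1 and 2, Dusp2 of 3.77 and 0.97, Myc of 3.37 and 0.25, and Klf6 of 4.09 and 2.62. Egr1 and Atf3 had close means in the treated mice, at 6.41 and 6.40 and at 5.63 and 5.32. Egr1 and Atf3 thus had a narrow gap between the treated mice, as Gem did. Other listed genes were lower in treated mouse 1 than in treated mouse 2, such as Fos (3.75 and 5.18) and Egr2 (0.71 and 1.83). These genes were picked after their values were known, and the share of listed genes with each pattern was not taken.

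Rrad is among the genes known to respond to denervation, and 27 other such genes were followed. Between Smn1deltaSKM and Wt 23 were tested and 7 called (30.4%), 2 higher and 5 lower, where 7.67% of all genes were higher and 14.1% lower, with a median difference of 0.41, and 0 were called without either Wt mouse and 12 without Smn1deltaSKM mouse 1. Ankrd1 rose by 3.29 (limma, adjusted p = 0.0146) and Tnfrsf12a, the receptor of the cytokine TWEAK, by 2.69 (limma, adjusted p = 0.0158). Among those that fell, the repressor Hdac4 had a difference of -1.93 (limma, adjusted p = 0.00725), the ubiquitin ligase Fbxo32 of -1.63 (0.0165), the acetylcholine receptor subunit Chrne of -1.501 (0.0248) and Igfbp5 of -1.89 (0.0351), a call lost in 10 alternatives. Myh8 was the other gene called lower (-1.20). The genes of this list did not move one way, with 12 higher and 11 lower, called or not. The part of denervation in these values was not tested.

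Against Wt, the treated mice had 5 calls among the 31 partners (1 higher, 4 lower, 16.1%), 6 among the 29 immediate early genes (all higher, 20.7%) and 4 among the 23 denervation-responsive genes (2 higher, 2 lower, 17.4%), where 7.77% of all 16648 genes were called. These contrasts share their Wt mice with those above. Klf4, one of the immediate early genes called, had values on 3 of 8 Wt and 7 of 7 treated arrays. It reached the filter only because the Smn1deltaSKM arrays counted toward it. Calls between treated mice and Wt did not hold without Wt mouse 1, without Wt mouse 2 or without treated mouse 1, for these lists and for all genes. Between treated and untreated Smn1deltaSKM mice limma called 0 genes in each of these lists, with 1, 3 and 1 genes at an unadjusted p under 0.05.

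Promoter sequences around the start site were listed for Rem1 and Rem2 in the RefSeq table of GRCm38.p6. Both held the E-box CANNTG, as did 72.3% of 32851 promoters. Neither held TGACGTCA, TGACTCA or TGAGTCA, a MEF2 box or a CArG box on either strand, motifs found in 1.63% to 5.2% of promoters.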

How the data were processed

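Single-myofiber RNA was hybridized to Agilent arrays. The intensity values of each spot were deposited by the authors as scanner output of Agilent Feature Extraction 10.7.3.1 (submitters' processing notes), background-subtracted and detrended within the array. The authors' value table holds linear intensities scaled between arrays (column medians 57.4 to 177, r with the log2 scanner signal 0.998 to 1.00), given where a spot was found and well above background, and served as an alternative. Positions are on mm9.

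Here log2 signals minus the 75th percentile of each array were used, without spots not found, not well above background or not uniform. Probes needed a value on 75% or more of the 20 Wt and Smn1deltaSKM arrays, or of all 27 arrays in both contrasts with treated mice, and the brightest stood for its gene. Levels were averaged within each mouse, and limma 3.58.1 in R 4.3.3 compared the 7 mice in 1 fit, with Benjamini-Hochberg adjustment over all genes and calls at an adjusted p under 0.05. The fit was tested on simulated data. P-values measure the spread between so few mice, and the number of arrays limits the precision.

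Members, lists and tests were chosen with earlier results of these data known. Named genes were the members, Cacna1s and Cacnb1, up to 4 called genes of each direction and list with the largest difference, and the 5 genes most like Rrad in each of 2 ways, unnamed probes left out. Alternatives covered filter, background correction, scaling, probe choice, replicate unit, batch blocks and each mouse left out.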

Additional observations from a re-analysis of the deposited data

Results flagged for a closer look

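Rem2 in Wt: the highest of the 8 myofibers, the first of mouse 2, lay at -3.30 and stood apart from the other 7, by 0.605 of the range of the group, more than the critical value of Dixon's test. About 1 in 20 groups passes that limit by chance, and the spot was not well above background on that array.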

How the results depend on the processing

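Alternatives other than the removal of the scan day 1 myofibers, which was chosen after seeing the data, were planned. The Rrad difference of Smn1deltaSKM from Wt was 7.26 with the measured signal kept, also without the filter, and 5.86 to 6.55 without 1 mouse in turn. That of treated mice from Wt was 4.19 to 7.74 without 1 mouse in turn, and it lost its call in 3 of those fits and in no other alternative. The Rrad difference of treated from untreated mice changed sign in several alternatives. It was 0.018 with myofibers as replicates, 0.87 with slide as a random block and 2.73 with slide as a fixed block. With slide fixed, the groups shared only 1 slide, with 1 myofiber of each. The difference was 1.12 within scan day 1, and 0.26 both within scan day 2 and without the scan day 1 myofibers. Without 1 mouse in turn it ran from -2.01 to 1.54. The cause was not tested. For Rem1 it turned to 0.069 with quantile normalization, 0.040 after normexp correction and 0.058 in the authors' table, and to 0.029 with slide as a random block, 0.17 as a fixed block and 0.14 within scan day 1, and it was -0.053 to 0.019 without 1 mouse in turn. For Gem it was -0.40 to 0.26 without 1 mouse in turn.

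Called RGK partners (8) became 21 with myofibers as replicates, 13 with mouse as a random block and 13 without the scan day 1 myofibers. Immediate early genes (9) became 15 without the filter, 5 with values on every array, 18 with myofibers as replicates and 5 with slide as a random block. Denervation-responsive genes (7) became 17, 12 and 4 with myofibers as replicates, a random mouse block and a random slide block. Without 1 mouse in turn the counts ran from 0 to 16, 0 to 15 and 0 to 12, at 0 without either Wt mouse and highest without Smn1deltaSKM mouse 1. Over all genes the 3705 calls between Smn1deltaSKM and Wt became 0 without either Wt mouse, 7533 without Smn1deltaSKM mouse 1 and 9269 with myofibers as replicates. Of the calls 35.3% were higher, and 56.1% with the arrays centred on probes detected everywhere. A lone mouse is assumed to vary like those of the other groups.

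Mouse numbers did not pair the mice (r of deviations from -0.0641 to 0.308). With the mouse number as a replicate block the Rrad difference was 6.39 for Smn1deltaSKM and 5.97 for treated mice from Wt (limma, adjusted p = 0.0246) and -0.42 between treated and untreated mice, and 2243 genes were called between Smn1deltaSKM and Wt. Few mice and Wt signals near the background limit what the members' values can show.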
